A study of Sus scrofa with 22 samples.

Results

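The 6 let-7 passenger strands of pig subcutaneous fat are described here: let-7a-3p, let-7c-3p, let-7d-3p, let-7e-3p, let-7f-3p and let-7i-3p. They were chosen by name, as the 3p arms of let-7 hairpins listed in the count tables, and they are 6 of 250 miRNA names. All reads of 1 name were summed in each library. The libraries come from subcutaneous fat of 22 female pigs aged 6 months, of 3 breeds, and the labels class the fat of each animal as thick or thin. There were 7 Pietrain libraries (4 thick, 3 thin), 8 Large White libraries (4 thick, 4 thin) and 7 Hampshire libraries (5 thick, 2 thin), so 13 thick and 9 thin in all. The labels give no treatment or genotype besides breed, do not pair animals across groups, and name whole tissue rather than sorted cells. They do not say whether the breeds were prepared or sequenced together, and p-values refer only to the spread between libraries.

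A miRNA hairpin is cut into a short duplex of 2 strands. The guide strand is loaded into an Argonaute protein and directs it to messenger RNAs through its seed, bases 2 to 8. The passenger strand is mostly discarded, although some passenger strands are loaded too. In let-7 hairpins the guide is the 5p arm. Its family is known for promoting differentiation and for repressing LIN28 and growth and insulin signalling genes such as the IGF receptor.

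The most abundant sequence of each passenger strand in these libraries is printed below, 5′ to 3′, with the seed in capitals, because the seeds show how the 6 strands differ.
let-7a-3p: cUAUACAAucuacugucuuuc
let-7f-3p: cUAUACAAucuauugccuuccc
let-7d-3p: cUAUACGAccugcugccuuucu
let-7e-3p: cUAUACGGccuccuagcuuuc
let-7c-3p: cUGUACAAccuucuagcuuuc
let-7i-3p: cUGCGCAAgcuacugccuugc

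The guides of the same hairpins are printed for comparison, again with the seed in capitals.
let-7a: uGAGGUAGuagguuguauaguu
let-7f-5p: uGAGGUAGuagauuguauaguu
let-7d-5p: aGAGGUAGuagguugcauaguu
let-7e: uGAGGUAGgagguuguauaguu
let-7c: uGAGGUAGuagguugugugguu
let-7i-5p: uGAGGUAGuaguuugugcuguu

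The 6 guides shared the seed GAGGUAG, whereas the passenger strands carried 5 seeds. let-7a-3p and let-7f-3p shared UAUACAA, and the other 4 had a seed each. Over their first 21 bases the passenger strands differed from each other at 3 to 10 positions and the guides at 1 to 6. Every passenger strand began with C. The guides began with U, apart from let-7d-5p, which began with A. Among the 48 other hairpins with both arms named, 14 of the arms with fewer reads began with C and 26 of the arms with more reads began with U. Paired in silico with its guide, each passenger strand formed 17 to 19 base pairs. The predicted duplex energy was -17.8 kcal/mol for let-7c, -22.7 for let-7a, -26.1 for let-7d, -26.6 for let-7f, -28.2 for let-7e and -28.7 for let-7i.

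The lowest and highest library totals were 759210 and 3137757 reads for Pietrain, 558144 and 2731336 for Large White, and 431542 and 2315501 for Hampshire. In every library the smallest count above 0 of any sequence was 6, so a recorded 0 may hide as many as 5 reads per sequence. Those 6 reads were 1.91 to 13.9 per 1e6 reads of the library. Not every 0 of a name is a low count. miR-145-5p stood at 0 in 4 Hampshire libraries and at 1323 to 21144 reads in all others. The bound of 5 reads per sequence used below thus holds only where a 0 comes from the smallest count recorded. Which 0s do was not tested. Levels are given in CPM, counts per 1e6 reads after TMM scaling, which evens out libraries whose reads are taken up by a few miRNAs. In CPM, 4 of 5 adipocyte and fat miRNAs were found, with sums of 187382 to 512118 over libraries, against 262.2 to 2462 for the 3 skeletal muscle miRNAs found. The liver miRNA miR-122 ranged from 0 to 21393 CPM. The Large White fat labels disagree with the authors' deposited comparison of that breed. Across 2701 sequences, the deposited fold change had the sign given by the labels in 45.6%, and in 97.3% once thick replicate 1 and thin replicate 1 were exchanged. In Pietrain and Hampshire the labels gave the deposited sign in 99.1% and 98.9% of sequences. Results below follow the labels, and the exchange is given where it turns a direction.

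The passenger strands held 12393 reads in all, and 96.9% of them were let-7d-3p. let-7d-3p had 12009 reads and was found in all 22 libraries, with 186 to 1768 reads in each. let-7i-3p had 205 reads in 17 libraries, 6 of 7 in Pietrain, 4 of 8 in Large White and 7 of 7 in Hampshire. The remaining 4 strands were at the edge of what the tables record. let-7e-3p had 76 reads in 7 libraries, let-7f-3p 72 in 9, let-7a-3p 21 in 3 and let-7c-3p 10 in 1, Hampshire thick fat replicate 3. By mean CPM over the 22 libraries, let-7d-3p ranked 79 of the 250 names, let-7i-3p 171 and let-7c-3p 245. The guides let-7i-5p, let-7a and let-7f-5p ranked 6, 7 and 8.

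**Figure D1:**
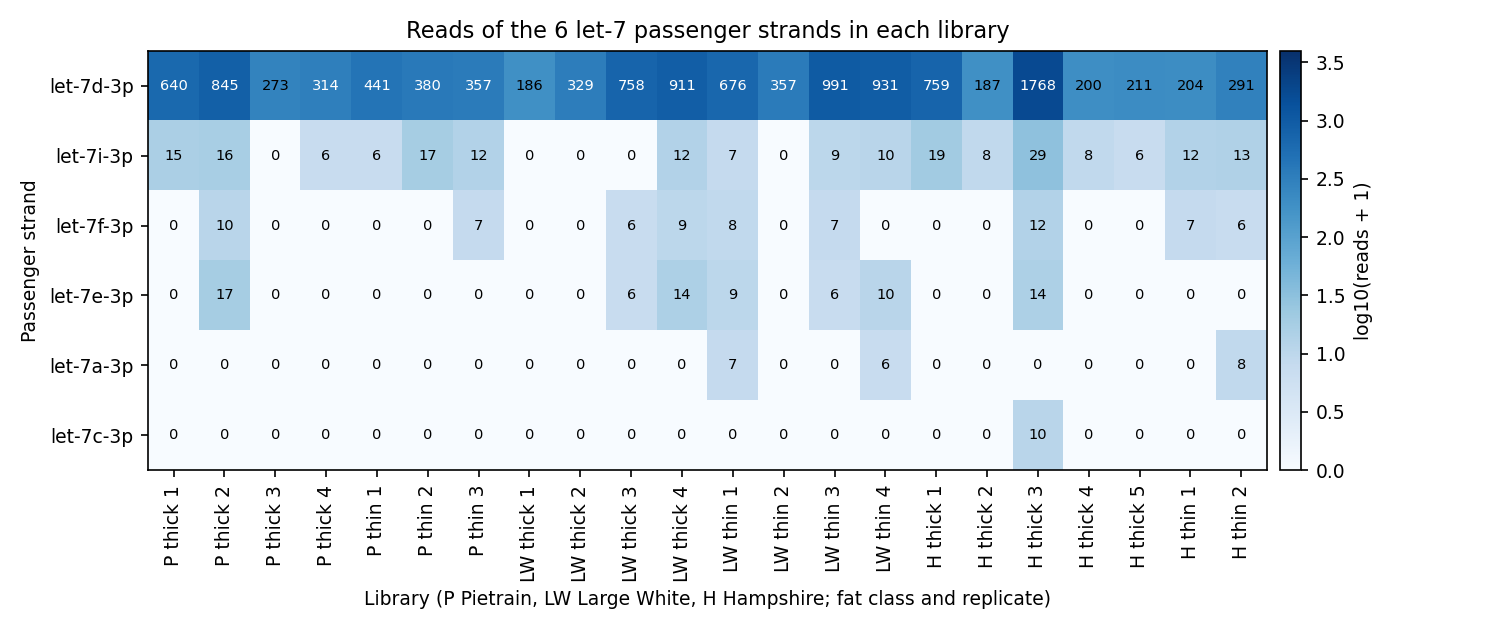
Reads of each passenger strand (rows) in each of the 22 libraries (columns), with the shade on a log10 scale of reads plus 1. let-7d-3p is above 0 in all 22 columns, let-7i-3p in 17, and let-7c-3p in 1; a 0 may hide as many as 5 reads per sequence.

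Library depth went with detection of the rare strands. let-7e-3p had reads in libraries of 1993009 to 3137757 total reads, and the libraries without it had 431542 to 2858652. It was above 0 in 5 Large White libraries, with 6 to 14 reads, in Pietrain thick fat replicate 2, with 17, and in Hampshire thick fat replicate 3, with 14. let-7f-3p was above 0 in libraries of at least 1350242 reads, at 6 to 12 reads. let-7a-3p had 7 and 6 reads in Large White thin fat replicates 1 and 4 and 8 in Hampshire thin fat replicate 2. Only let-7d-3p and let-7i-3p passed the filter on low counts, let-7i-3p not in the fit of Large White alone, so the other 4 strands were not tested. These 4 strands peaked at 6.59 CPM. Where let-7e-3p, let-7a-3p and let-7c-3p stood at 0, the 5 reads a 0 may hide would be worth 1.47 to 11.8 CPM, depending on the library.

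The ratio of the strands separated let-7d from the other let-7 hairpins. With the reads of all libraries summed, there were 19.99 let-7d-3p reads per 100 let-7d-5p reads. The let-7e hairpin had 0.0722 passenger reads per 100 guide reads, let-7i 0.0105, let-7f 0.00403, let-7a 0.00107 and let-7c 0.000803. Among 54 hairpins with both arms named, 49 had a lower ratio of the minor to the major arm than let-7d, and let-7c had the lowest. The median of the 48 hairpins outside let-7 was 2.97. These ratios pair the arms by name and use the reads of all sequences of a name. A guide name that covers several hairpins is not split, which would lower its ratio. A 0 counts as no reads in these ratios.

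**Figure D2:**
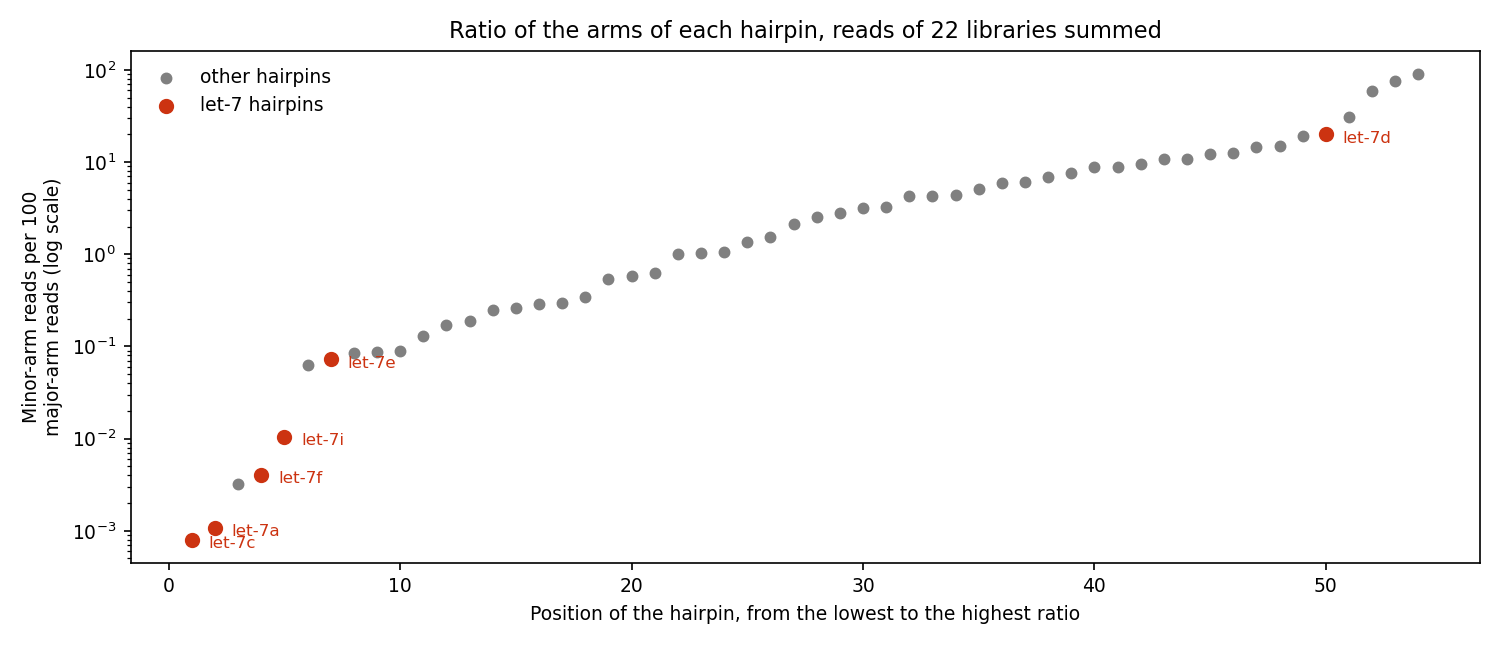
Minor-arm reads per 100 major-arm reads on a log axis for the 54 hairpins with both arms named, ordered from the lowest to the highest, with reads of the 22 libraries summed; red points are the 6 let-7 hairpins. let-7d stands at 19.99, and the other let-7 hairpins lie between 0.000803 and 0.0722.

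The 2 hairpins with the highest let-7 ratios, let-7d and let-7e, were also those with the least abundant guides. The guide is the denominator of the ratio, so a low guide raises the ratio by itself. let-7e-3p had fewer reads than let-7i-3p, 76 against 205. let-7d-5p had the lowest mean level of the 6 guides, at 1560 CPM, and let-7e came next at 2489 CPM. The guides let-7c, let-7f-5p, let-7a and let-7i-5p had means of 31590, 45606, 50357 and 53781 CPM. The passenger strand let-7d-3p had a mean of 312.9 ± 119 CPM (SD, n = 22) and let-7i-3p a mean of 6.14 ± 5.20 CPM (SD, n = 22).

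let-7d-3p in Pietrain thick fat stood at 245.7, 248.1, 340.4 and 302.3 CPM in replicates 1 to 4. In Pietrain thin fat it stood at 254.7, 241.8 and 224.9 CPM. The Pietrain classes overlapped, with means of 284.1 ± 45.7 (SD, n = 4) and 240.5 ± 14.9 CPM (SD, n = 3). In Large White, thick fat had 369.0, 221.2, 299.0 and 344.7 CPM. Large White thin fat had 277.4, 233.6, 338.5 and 316.9 CPM. These values overlapped as well, with means of 308.5 ± 65.0 (SD, n = 4) and 292 ± 46.2 CPM (SD, n = 4).

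Hampshire thick fat was the group with the widest spread, with 586.9, 442.7, 671.7, 244.6 and 266.1 CPM in replicates 1 to 5. Hampshire thin fat had 192.1 and 221.6 CPM. The means of the Hampshire classes were 442.4 ± 189 (SD, n = 5) and 206.9 ± 20.9 CPM (SD, n = 2). Hampshire thick fat replicates 1, 2 and 3 lay above every other library of the series, the highest of which had 369.0 CPM. Replicates 4 and 5 lay within the range of the other breeds. Of the 108 names above 0 in every library, 2 had replicates 1 to 3 above every other library, let-7d-3p and miR-128. Replicates 1 to 3 were picked by their let-7d-3p values, so let-7d-3p is in that count by choice.

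Other values of Hampshire thick fat replicates 1 to 3 are given here beside let-7d-3p. Reads of sequences without a name made up 0.0865%, 0.192% and 0.0883% of reads in Hampshire thick fat replicates 1 to 3, while replicate 4 had 0.0957% and Pietrain thick fat replicate 3 had 0.0807%. Summed fat miRNAs (4 of 5 names) were at 356166, 374648 and 265470 CPM in replicates 1 to 3, the lowest of the 7 Hampshire libraries, and the other breeds ran from 187382 to 354269 CPM. Summed red blood cell miRNAs (3 of 3 names) were at 467.8, 558.7 and 612.4 CPM, inside the 354.5 to 1189 CPM of the other breeds. Hampshire thick fat replicates 4 and 5 had 1937 and 1795 CPM and thin fat had 434.2 and 1684 CPM. Summed skeletal muscle miRNAs (3 of 5 names) were at 1403, 1101 and 317.2 CPM, against 777.0 to 2462 CPM in the other 4 Hampshire libraries. Summed leukocyte miRNAs (5 of 5 names) were at 472.4, 1489 and 534.2 CPM, against 395.6 to 1745 CPM in those 4. Summed endothelium miRNAs (2 of 2 names) were at 32629, 37355 and 40747 CPM in replicates 1 to 3, against 42613 to 85947 CPM in those 4. The other breeds ran from 31899 to 61070 CPM. The liver miRNA miR-122 was at 20.1, 1565 and 12565 CPM, against 432.6 to 21393 CPM in those 4. The part of all these values in the let-7d-3p values was not tested. In bulk tissue, fewer cells of a type and less RNA per cell cannot be told apart.

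**Figure D3:**
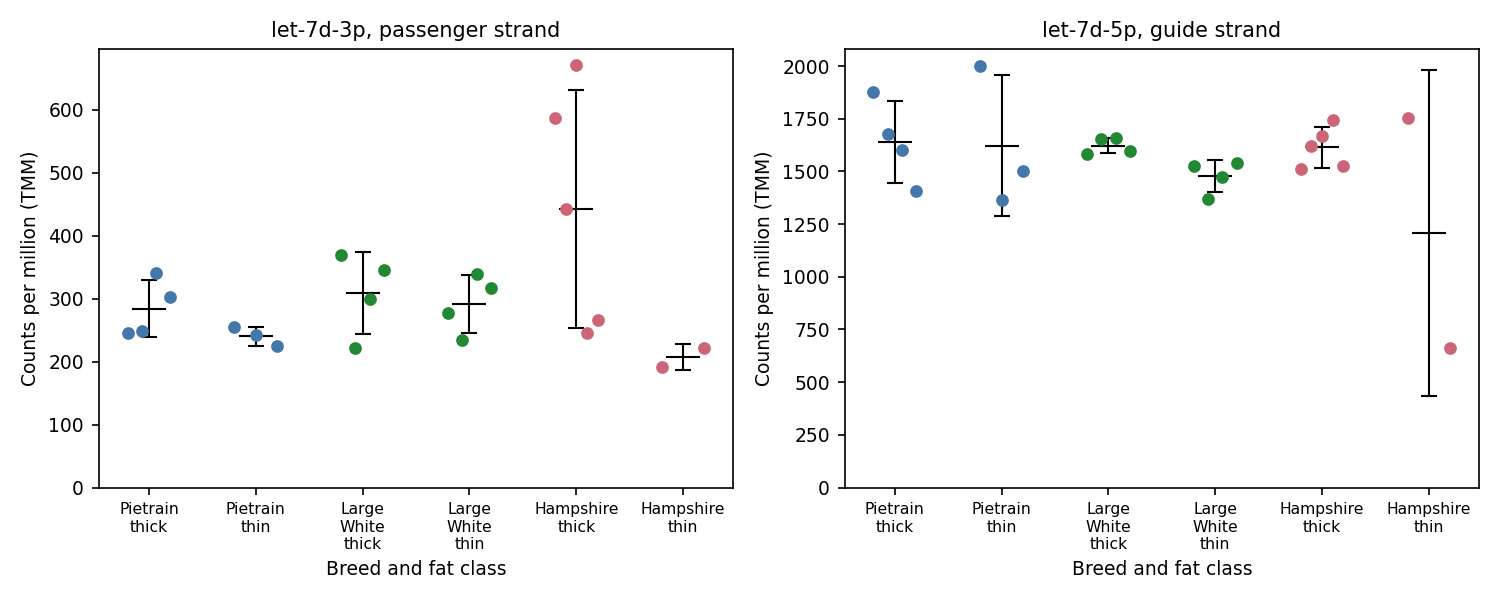
let-7d-3p (left) and its guide let-7d-5p (right) in CPM, 1 point per library, by breed and fat class; bars are the mean and SD of the group. Hampshire thick fat replicates 1 to 3 lie at 442.7 to 671.7 CPM for let-7d-3p, while its guide is lowest in Hampshire thin fat replicate 2, at 660.3 CPM.

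Fat class was compared first within each breed. Thick minus thin, the log2 fold change of let-7d-3p was 0.26 ± 0.20 (SE) in Pietrain (edgeR adjusted p = 0.993), 0.08 ± 0.19 in Large White (adjusted p = 0.958) and 1.15 ± 0.54 in Hampshire (adjusted p = 0.894). None of the 3 passed the threshold of 0.05. let-7i-3p had no test in Large White, where it did not pass the filter. In the background, edgeR called 0.0% of 161 names in Pietrain, 0.0% of 170 in Large White and 0.0% of 172 in Hampshire, with 4, 2 and 5 names below 0.05 before adjustment. DESeq2 called 1, 0 and 3 names. With the 2 Large White libraries exchanged, the Large White value was -0.10 ± 0.18. Without Hampshire thick fat replicates 1 to 3, the highest libraries, the Hampshire value was 0.21 ± 0.34, a drop set by that choice.

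In the fit of all breeds together, which has a term for breed, let-7d-3p had a log2 fold change of 0.39 ± 0.19 (SE) in thick over thin fat, with a 95% interval of -0.01 to 0.80 (edgeR adjusted p = 0.997, unadjusted p = 0.0548). Without Hampshire thick fat replicates 1 to 3 it was 0.17 ± 0.11, again a drop set by leaving out the highest libraries. The background was 0.0% of 206 names called, with 5 below 0.05 before adjustment and 2 called by DESeq2. An interaction test, which asks if the fat class difference depends on breed, gave an edgeR adjusted p of 0.822 for let-7d-3p (unadjusted p = 0.0749), again with 0.0% of 206 names called, 11 below 0.05 before adjustment and 2 called by DESeq2. let-7i-3p had -0.56 ± 0.75 over all breeds, with an interval of -2.13 to 1.01 (edgeR adjusted p = 0.997). Of the guides of the 6 hairpins, 0 passed in any comparison of fat classes, and let-7d-5p stood at 0.17 ± 0.13 over all breeds (edgeR adjusted p = 0.997).

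In the authors' deposited table, 0 of 20 passenger sequences in Hampshire, 0 of 19 in Large White and 0 of 16 in Pietrain, 9 of them with an adjusted p, passed 0.05. Of all sequences with an adjusted p-value in the authors' deposited table, 0.0187% passed in Hampshire, 0.0% in Large White and 1.89% in Pietrain. There the full-length let-7d-3p sequence of 22 nt had a log2 fold change of -1.14 with a standard error of 0.526 in Hampshire, signed thin minus thick, and an adjusted p-value of 0.973. The 21 nt sequence had -1.25 in the authors' deposited table for that breed, with an unadjusted p-value of 0.0348.

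Between breeds, with thick and thin fat weighted equally, let-7d-3p did not pass the test in any of the 3 comparisons. On the log2 scale, Hampshire minus Large White was 0.01 ± 0.21 (SE) with a 95% interval of -0.43 to 0.46 (edgeR adjusted p = 1.00). Hampshire minus Pietrain was 0.21 ± 0.22 (adjusted p = 0.521), and Pietrain minus Large White was -0.20 ± 0.20 (adjusted p = 0.866). edgeR called 17.5% of 206 names between Hampshire and Large White, 18.9% between Hampshire and Pietrain, and 0.0% between Pietrain and Large White, where 25 were below 0.05 before adjustment and DESeq2 called 7. The Hampshire comparisons share libraries. Without Hampshire thick fat replicates 1 to 3, Hampshire minus Large White was -0.45 ± 0.16 for let-7d-3p and Hampshire minus Pietrain was -0.28. Those 3 libraries had the highest let-7d-3p values and were left out after seeing the data. A lower Hampshire value was thus set by the choice, and no p-value is read from it. With upper quartile scaling these 2 differences were -0.17 and -0.02 over all libraries, a scaling that moved the median of all names by -0.19 and -0.25. Breed and any batch of libraries cannot be told apart.

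let-7i-3p, the second passenger strand tested, was at or below 18.9 CPM in every library. Pietrain thick fat had 15, 16, 0 and 6 reads, or 5.76, 4.70, 0 and 5.78 CPM. Pietrain thin fat had 6, 17 and 12 reads, or 3.46, 10.8 and 7.56 CPM. Large White had fewer reads, with 0, 0, 0 and 12 in thick fat and 7, 0, 9 and 10 in thin fat, at most 4.54 CPM. Hampshire thick fat had 19, 8, 29, 8 and 6 reads, or 14.7, 18.9, 11.0, 9.79 and 7.57 CPM, and Hampshire thin fat had 12 and 13 reads, or 11.3 and 9.90 CPM. All 7 Hampshire libraries thus lay above all 8 Large White libraries as recorded, which 2.91% of the 206 names tested did in CPM. let-7i-3p has 2 sequences, so a 0 may hide as many as 10 reads, worth up to 19.8 CPM, and the true groups may overlap.

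The breed means of let-7i-3p were 11.9 ± 3.78 CPM in Hampshire (SD, n = 7), 5.44 ± 3.36 in Pietrain (SD, n = 7) and 1.74 ± 1.92 in Large White (SD, n = 8). Its guide let-7i-5p had 55833 ± 21853 CPM in Hampshire (SD, n = 7), 56580 ± 12110 in Pietrain (SD, n = 7) and 49537 ± 8569 in Large White (SD, n = 8). Hampshire minus Large White was 2.66 ± 0.95 on the log2 scale for let-7i-3p (edgeR adjusted p = 0.0579), over the threshold of 0.05, and 0.24 ± 0.22 for the guide (adjusted p = 0.526). Over the alternatives the adjusted p for let-7i-3p ran from 0.00271 to 0.478, and 4 of them passed. DESeq2 gave 2.70, with an adjusted p of 0.00295. With names at 0 set to 5 reads edgeR gave 1.36 (adjusted p = 0.00271), and without Large White thick fat replicate 4 it gave 4.76 (adjusted p = 0.00321). Without Pietrain thick fat replicate 3 it gave 2.66 (edgeR adjusted p = 0.0421). With let-7i-3p at 0 set to 10 reads it gave 0.97 (edgeR adjusted p = 0.188). Hampshire minus Pietrain was 1.05 ± 0.97 (adjusted p = 0.471) and Pietrain minus Large White 1.61 ± 0.90 (adjusted p = 0.669).

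The ratio of passenger to guide within a library needs no scaling between libraries. For the let-7d hairpin, let-7d-3p reads per 100 let-7d-5p reads were 13.1, 14.8, 21.2 and 21.5 in Pietrain thick fat and 12.7, 17.7 and 14.9 in Pietrain thin fat. Large White thick fat had 23.3, 13.4, 18.0 and 21.6, and Large White thin fat had 18.2, 17.0, 23.0 and 20.6. In Hampshire the ratio spread more widely, at 38.8, 27.3, 40.2, 14.0 and 17.4 in thick fat and 11.0 and 33.6 in thin fat. The high value of Hampshire thin fat replicate 2 stood beside a guide level of 660.3 CPM, while let-7d-5p in the other 21 libraries had 1363 to 2001 CPM.

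The let-7d ratio did not pass a test between groups. On the log2 scale, thick minus thin was 0.15 ± 0.22 (SE; limma adjusted p = 0.970), Hampshire minus Large White 0.21 ± 0.29 (adjusted p = 0.643), Hampshire minus Pietrain 0.46 ± 0.30 (adjusted p = 0.293) and Pietrain minus Large White -0.25 ± 0.27 (adjusted p = 0.658). Of 35 hairpins tested, limma called 0.0% for fat class, with 0 below 0.05 before adjustment, 22.9% between Hampshire and Large White, 25.7% between Hampshire and Pietrain, and 0.0% between Pietrain and Large White, with 2 below 0.05 before adjustment. Without Hampshire thin fat replicate 1, the let-7d ratio between Hampshire and Pietrain was 0.86 and passed (limma adjusted p = 0.0476). Without Hampshire thin fat replicate 2 it was 0.05.

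The let-7i ratio as recorded was higher in Hampshire than in Large White, a call that depends on the reads behind a 0. In Hampshire there were 36.1, 43.4, 38.6, 12.2 and 11.2 let-7i-3p reads per 100000 let-7i-5p reads in thick fat and 13.2 and 22.2 in thin fat. Large White had 0, 0, 0 and 10.6 in thick fat and 7.21, 0, 6.99 and 6.95 in thin fat. Pietrain lay between, at 7.45, 10.17, 0 and 14.5 in thick fat and 5.69, 17.5 and 13.2 in thin fat. Hampshire had a mean of 25.3 ± 13.8 (SD, n = 7), Pietrain one of 9.79 ± 5.94 (SD, n = 7) and Large White one of 3.97 ± 4.41 (SD, n = 8). All 7 Hampshire libraries lay above all 8 Large White libraries as recorded, which 8.57% of the 35 hairpins did. A 0 that hides 10 reads would be up to 36.2 reads per 100000 guide reads, so here too the true groups may overlap.

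Hampshire minus Large White in the let-7i ratio was 3.15 ± 0.82 on the log2 scale (SE), with a 95% interval of 1.42 to 4.87 (limma adjusted p = 0.00904), beside 11.4% of the 35 hairpins called higher. An exact two-sided permutation test over the libraries gave p = 0.000932. The size and the call rest on how a 0 is read. With let-7i-3p at 0 set to 10 reads the difference was 0.95 and did not pass (limma adjusted p = 0.130). With names at 0 set to 5 reads the difference was 1.42 (limma adjusted p = 0.0110), and with 5 reads added to each arm in place of 0.5 it was 1.67 (adjusted p = 0.00285). Without Hampshire thin fat replicate 2 it was 2.96 and missed the threshold (limma adjusted p = 0.0614), and without Hampshire thick fat replicates 1 to 3 it was 2.64 (adjusted p = 0.0563). Hampshire minus Pietrain was 1.33 ± 0.85 (limma adjusted p = 0.293, exact permutation p = 0.0175) and Pietrain minus Large White 1.82 ± 0.78 (limma adjusted p = 0.547). Fat class gave -0.70 ± 0.65 (limma adjusted p = 0.970). Fat miRNAs went both ways between Hampshire and Large White. Of 4 tested, edgeR called miR-148a-3p higher in Hampshire and miR-365-3p lower, and 2 were not called. Of all names, 9.22% were called higher and 8.25% lower. miR-148a-3p stood at 292007 ± 56203 CPM in Hampshire (SD, n = 7) and 166141 ± 34293 in Large White (SD, n = 8). The part of these miRNAs in the let-7i result was not tested.

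**Figure D4:**
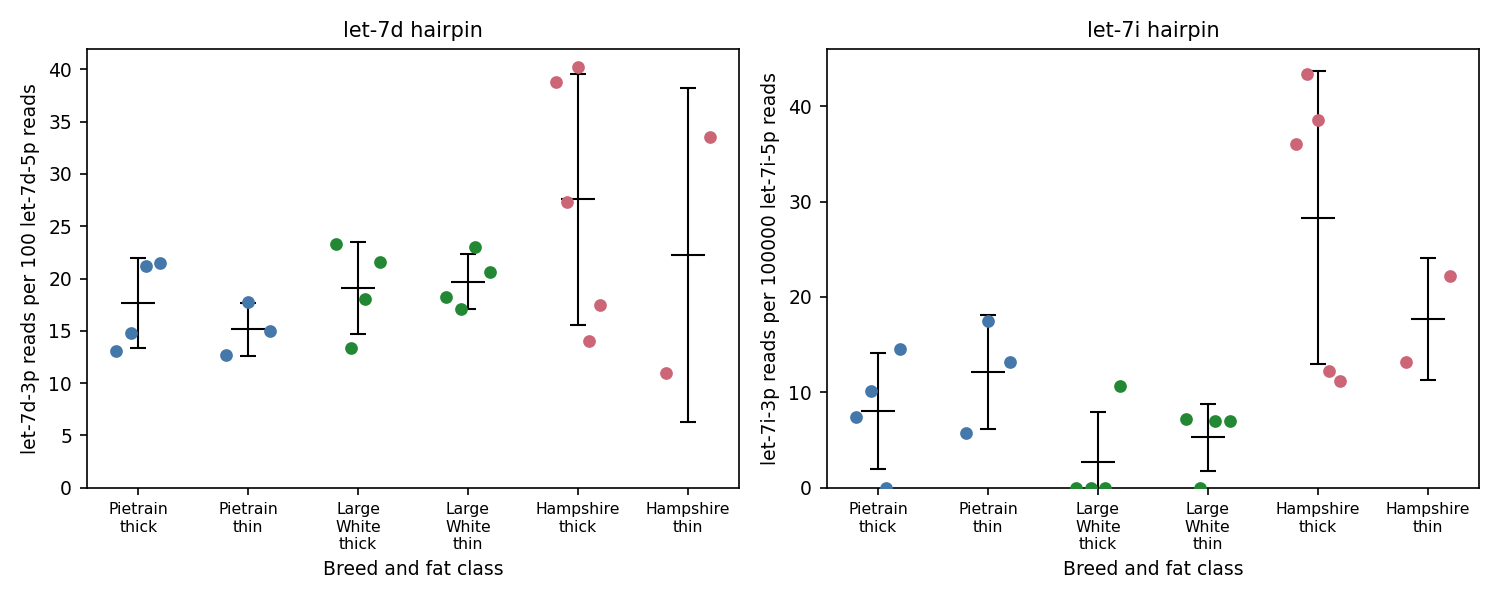
Passenger reads relative to guide reads by breed and fat class, 1 point per library with the group mean and SD: let-7d-3p per 100 let-7d-5p reads (left) and let-7i-3p per 100000 let-7i-5p reads (right). In the right panel the 7 Hampshire libraries lie between 11.2 and 43.4 and the 8 Large White libraries between 0 and 10.6.

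The let-7d-3p reads varied mostly at the 3′ end. Its 12009 reads fell on 15 sequences, of which 6 were found in every library, and those 6 held 91.6% to 100% of let-7d-3p reads. A library had 6 to 14 of the sequences. The 5 main sequences with the usual start and the main one that starts a base later are printed because they show where the strand varies, with the seed in capitals.
full length, 22 nt: cUAUACGAccugcugccuuucu
1 base shorter, 21 nt: cUAUACGAccugcugccuuuc
2 bases shorter, 20 nt: cUAUACGAccugcugccuuu
last base C: cUAUACGAccugcugccuuucc
last base A: cUAUACGAccugcugccuuuca
start 1 base later: uAUACGACcugcugccuuucu

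The full-length sequence held 41.5% ± 4.52 of let-7d-3p reads (SD, n = 22) and the 21 nt sequence 31.3% ± 3.52. The 20 nt sequence held 5.67% ± 2.00. Numbering bases from 1 at the 5′ end, and writing the usual base before the changed one, the sequence with U22C held 8.28% ± 1.49 and that with U22A held 6.56% ± 0.959. Those changes lie at the last base, outside the seed. Both were found in all 22 libraries, U22C at 5.73% to 11.0% and U22A at 4.76% to 8.70%. Whether they come from untemplated addition, a change in the genome or a read error was not tested.

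The later start changes the seed. Of the 15 sequences, 4 began at the second base, and they held 5.25% ± 1.45 of let-7d-3p reads (SD, n = 22), from 2.55% in Pietrain thick fat replicate 4 to 8.52% in Pietrain thick fat replicate 2. The main one held 4.04% ± 0.891 and was found in all 22 libraries, and its seed reads AUACGAC in place of UAUACGA. The others were found in 12, 6 and 3 libraries, and where they stood at 0 the summed share can be too low. Pietrain thick fat replicate 2, with the highest share, was also the deepest library, at 3137757 reads. The guide of the same hairpin, let-7d-5p, had 0% of its reads in a sequence that begins a base later, among 46 sequences. With all libraries summed, let-7d-5p had 96.4% at the usual start. Another 3.55% began with other bases, from a start further away or a base changed near the start, which were not told apart. In the other 5 guides the share that begins a base later was at most 0.0125%, with all libraries summed. The other 5 passenger strands had 1 or 2 sequences each, all with the usual start. They had at most 29 reads in a library, so a share as in let-7d-3p would fall below the 6 reads recorded. Their starts thus cannot be compared with those of let-7d-3p.

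**Figure D5:**
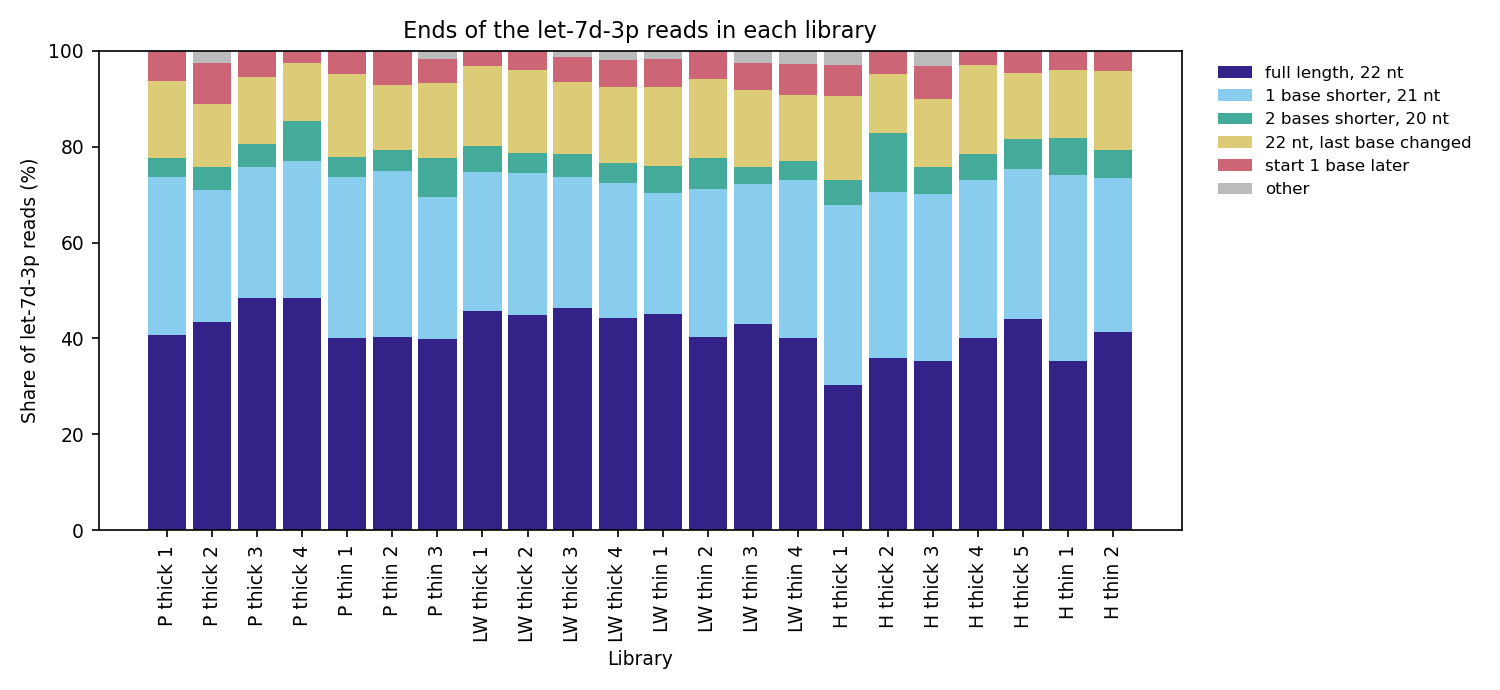
Share of let-7d-3p reads (%) in each of the 22 libraries by the ends of the read, as stacked bars that sum to 100%. The full-length 22 nt sequence holds 30.3% to 48.4% and the sequences that start 1 base later hold 2.55% to 8.52%.

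The let-7d-3p reads ended earlier in Hampshire than in Large White. Of the 21 and 22 nt unchanged reads, 22 nt reads made up 51.8% ± 4.89 for Hampshire (SD, n = 7), 58.4% ± 4.17 for Pietrain (SD, n = 7) and 60.1% ± 3.06 for Large White (SD, n = 8). The Hampshire libraries ran from 44.7% to 58.5% and the Large White libraries from 55.0% to 64.2%, so they overlapped. The share dropped by 8.31 percentage points from Large White to Hampshire (exact two-sided permutation p = 0.00171, adjusted over 8 such tests p = 0.0137). From Pietrain to Hampshire it dropped by 6.55 points (exact permutation p = 0.0210, adjusted p = 0.0839), which did not pass, and thick fat exceeded thin fat by 2.73 points (exact permutation p = 0.149, adjusted p = 0.263). The share of later starts among reads with the full-length 3′ end did not pass in any of the 4 comparisons, with exact permutation p-values from 0.0898 to 0.928.

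Mean read length was compared for the 108 names above 0 in every library, a comparison added after the data were seen. For let-7d-3p, Hampshire minus Large White was -0.0831 ± 0.0275 nt (SE; limma adjusted p = 0.0168). limma called 53.7% of the 108 names in that comparison and 52.8% of them as shorter in Hampshire, so the let-7d-3p call is what most names show. let-7d-5p stood at -0.142 ± 0.0191 nt. Without Hampshire thick fat replicates 1 to 3 the let-7d-3p difference was -0.0416 nt (limma adjusted p = 0.126), and without Hampshire thin fat replicate 1 it was -0.0576 nt (adjusted p = 0.146).

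Among the guides, Hampshire was the breed with differences. Of the 9 let-7 guides listed, 8 were tested, and 4 were lower in Hampshire than in Large White, beside 8.25% of all names called lower. They were let-7f-5p, let-7g, let-7e and let-7c. Their list had a median log2 difference of -0.48, against -0.02 over all names tested. On the log2 scale let-7e stood at -1.31 ± 0.19 (edgeR adjusted p = 9.64e-05), let-7f-5p at -0.91 ± 0.25 (adjusted p = 0.0175) and let-7d-5p, the guide of the main passenger strand, at -0.15 ± 0.16 (adjusted p = 0.587). Against Pietrain, 3 of 8 guides were lower in Hampshire, also beside 8.25% of names, and the comparisons share the Hampshire libraries. Of the 5 miRNAs transcribed in clusters with let-7 hairpins (miR-99a, miR-125b, miR-99b, miR-125a and miR-100), 0 passed against Large White and 1, miR-99a, was higher in Hampshire than in Pietrain. Among all 206 names tested, 22 were called higher in Hampshire than in Pietrain. Of 33 other minor arms tested, 1 was higher in Hampshire than in Large White, miR-122-3p, beside 9.22% of all names. The 2 lower ones were miR-145-3p and miR-214-5p. Both arms of miR-145 stood at 0 in 4 Hampshire libraries and both arms of miR-214 in all 7, and of the 17 names called lower, 7 were at 0 in at least 1 Hampshire library.

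The names whose level followed let-7d-3p most closely were found by the SD over the 22 libraries of the log2 ratio to let-7d-3p, among the 108 names above 0 in all of them. miR-99b had the smallest SD, 0.323, followed by miR-139-5p at 0.324 and miR-30a-5p at 0.331, against a median of 0.677. Its own guide let-7d-5p ranked 20, at 0.509, and let-7f-5p ranked 99, at 1.03. The level of let-7d-3p itself had an SD of 0.455 on the log2 scale, its guide 0.303, and the median name 0.469. All of these values share the libraries and their scaling.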

How the data were processed

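Per the labels' protocols, RNA of integrity number above 7.5 went into NEBNext small RNA libraries. The submitters' processing notes list Sscrofa10.2 as the pig assembly and, as tools, FastQC, bcl2fastq and DESeq2. The trimmer, aligner, miRNA release and versions are not given in the sources used here. The authors deposited raw read counts per sequence for each breed, with a miRNA name in the row name and no normalization. Per the file headers, the deposited comparison tables give a mean signal, a log2 fold change with its error, a test score, and a p-value both unadjusted and adjusted. No genome of that assembly was at hand, so sequences come from the deposited tables and no coordinates are given.

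Species prefixes and marks were stripped and counts summed per name. The 80 unnamed of 8489 sequences held 0.0480% of reads and were left out. Counts are not corrected for how well a sequence ligates or amplifies, and without molecular identifiers PCR copies are counted as reads. edgeR 4.0.16 (quasi-likelihood, robust, TMM scaling, minimum count 10) tested names with Benjamini-Hochberg adjustment over all names. limma 3.58.1 tested log2 of (minor arm + 0.5)/(major arm + 0.5) over hairpins with both arms passing the filter. Standard errors and 95% intervals are from the moderated fits. DESeq2 1.42.0, other scalings, filters and floors, and leaving out each library were alternatives. Duplexes were predicted with ViennaRNA RNAduplex 2.7.2. The fits were tested on simulated data with known changes, of which they missed many. The named miRNAs are the 6 passenger strands, their guides, the lists given and the 3 nearest names in level. Other names appear only where a count of 5 or fewer falls to them. Members and lists were chosen with earlier results of these data known.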

Additional observations from a re-analysis of the deposited data

Results flagged for a closer look

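For let-7i-3p, 1 library of each Large White group lay far from the others, on 2 scales of the same reads. Chance gives such a gap in about 1 in 20 groups, but recorded 0s fix the gap here, so their number is not set against it. Large White thick fat replicate 4 had 4.54 CPM, or 10.6 reads per 100000 guide reads, with the other 3 libraries at 0. Large White thin fat replicate 2 was at 0 on both scales, with the other 3 at 2.87 to 3.40 CPM, or 6.95 to 7.21 reads per 100000 guide reads. Since the smallest count recorded is 6, each of these gaps can be smaller than it looks.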

How the results depend on the processing

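Library titles of Hampshire share 5 numbers with Pietrain and 2 with Large White, from different pigs, and no label ties a number to a litter, batch or day. Same-numbered libraries had correlations of -0.0305 to 0.324 between their deviations from the group means, so the numbers were not taken to pair them. With the number as a replicate block, edgeR called 3 names between Hampshire and Large White and 12 between Hampshire and Pietrain, and limma 2 and 1 arm ratios. The block gave a let-7d-3p difference of -0.27 between Hampshire and Large White, and for fat class arm ratios of -0.0384 (let-7d) and 0.0785 (let-7i). The let-7i arm ratio between Hampshire and Large White was 4.06 and did not pass (limma adjusted p = 0.266). DESeq2 called 2 names for fat class over all breeds, 1 in Pietrain, 3 in Hampshire, 2 for fat class by breed, 57 between Hampshire and Large White against 36 by edgeR, and 7 between Pietrain and Large White. Without Hampshire thick fat replicates 1 to 3, edgeR called 1 for fat class by breed and 56 between Hampshire and Large White. For arm ratios between Hampshire and Large White, Hampshire and Pietrain, and Pietrain and Large White, limma called 5, 5 and 1 from sequences above 0 in every library, and 4, 5 and 1 from pairs above 0 in every library. With names at 0 set to 5 reads it called 19 and 14 in the Hampshire comparisons, against 8 and 9. With upper quartile scaling, 35.0% of edgeR's calls between Hampshire and Large White and 35.9% between Hampshire and Pietrain were higher in Hampshire, against 52.8% and 56.4%. The causes were not tested. Leaving out the 3 Hampshire libraries, setting 0s to 5 or 10 reads, the block and the read length comparison were chosen after seeing the data.

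For let-7d-3p the log2 difference between Hampshire and Large White was -0.11 with a common floor, -0.17 with upper quartile scaling, -0.20 with names at 0 set to 5 reads and -0.45 without Hampshire thick fat replicates 1 to 3, against 0.01. Between Hampshire and Pietrain it was -0.0198 with upper quartile scaling and -0.28 without those 3 libraries. With Large White thick replicate 1 and thin replicate 1 exchanged, thick minus thin in Large White was -0.10. Its arm ratio without the 3 Hampshire libraries was -0.0181 for fat class and -0.14 between Hampshire and Large White. The let-7i arm ratio for fat class was 0.0720 with a pseudocount of 5 and 0.27 with names at 0 set to 5 reads. With let-7i-3p at 0 set to 10 reads it was 0.53, and the level of let-7i-3p for fat class was 0.46.

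Leaving out 1 library at a time, calls ranged from 0 to 1 for fat class over all breeds, 0 to 2 in Pietrain, 0 to 1 in Large White, 0 to 1 in Hampshire and 0 to 2 for fat class by breed. They ranged from 22 to 40 between Hampshire and Large White and 22 to 43 between Hampshire and Pietrain, each lowest without Hampshire thin fat replicate 2. Arm ratio calls ranged from 5 to 11, 4 to 11, and 0 to 1 between Pietrain and Large White, and read length calls there from 0 to 2. The let-7d-3p values ranged from -0.00401 to 0.20 for fat class in Large White and from -0.11 to 0.0817 between Hampshire and Large White. Its arm ratio ranged from -0.0285 to 0.27 for fat class and from -0.20 to 0.61 between Hampshire and Large White. let-7i-3p had no value under the common floor, which it exceeded in 2 libraries.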
